A study of Mus musculus with 13 samples.

Results

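Expression of 10 genes linked to the disease-associated microglia (DAM) state was examined in RNA-Seq profiles of sorted brain myeloid cells. They encode surface proteins, secreted or lysosomal inhibitors of proteases, and the enzyme lysozyme. The genes were chosen by name, as the rows of the deposited files whose Ensembl identifiers map to Cst7, Cst3, Serpine2, Timp2, Cd9, Cd63, Cd52, Cadm1, Ank and Lyz2, and they are 10 of the 52636 genes listed. The study asked how loss of Trem2, a microglial lipid receptor, alters the response of microglia to β-amyloid. Cells positive for CD11b and CD45 and negative for Ccr2 and Ly6g were collected by FACS from the cortex and hippocampus of 13 mice aged 14 to 15 months. The 7 PS2APP;Trem2wt mice (5 females and 2 males) and the 6 PS2APP;Trem2ko mice (5 females and 1 male) all carried human presenilin 2 and amyloid precursor protein transgenes with familial Alzheimer's disease mutations. The promoters that drive these transgenes are not given in the sources used here. The PS2APP;Trem2ko mice were in addition homozygous for a null Trem2 allele made on a C57BL/6N background and crossed into the C57BL/6J line. Each mouse was 1 replicate, and mice without the transgenes were not analysed here.

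Microglia that meet amyloid plaques or dying cells leave their resting state and turn on a shared set of genes, the DAM program, and in mouse models a large part of that program needs Trem2. The program includes inhibitors of proteases, which limit enzymes released from lysosomes or acting outside the cell, and tetraspanins and other surface proteins, which organise membranes and contacts with neighbouring cells. Some of its genes are switched on from low levels, while others are already abundant in resting microglia and rise further.

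The deposited values are counts of uniquely aligned reads and nRPKM, a read density per kilobase of gene model adjusted by a size factor, so that levels of different genes can be set side by side. Total counts were between 26120961 and 114857155 in PS2APP;Trem2wt mice and between 41567025 and 120569609 in PS2APP;Trem2ko mice. Every one of the 10 genes had at least 2135 counts in every mouse. Trem2 itself was at 818 to 1244 nRPKM in the PS2APP;Trem2wt mice and at 0.393 to 2.29 nRPKM in the PS2APP;Trem2ko mice. The summed level of 13 microglia markers was 15758 to 19454 nRPKM in PS2APP;Trem2wt and 16406 to 18567 nRPKM in PS2APP;Trem2ko mice, and 1 of the 13 (Cx3cr1, log2 fold change -0.49, edgeR adjusted p = 0.0067) was lower. In both groups the sums for border macrophage (at most 55.4), monocyte (at most 25.3), lymphocyte (at most 25.8), astrocyte (at most 89.1), oligodendrocyte (at most 74), neuron (at most 15.5) and endothelial and mural markers (at most 23) stayed far below that of microglia. Of these lists a single gene, Flt1 of the endothelial and mural list, was called between genotypes (log2 fold change -2.20, edgeR adjusted p = 0.000336). The other genes of that list did not share this difference. Over its 8 genes tested the median log2 fold change was 0.0144, with 4 negative and 4 positive. Neutrophil markers summed to between 8.85 and 168 nRPKM in PS2APP;Trem2wt and between 0.149 and 25.5 nRPKM in PS2APP;Trem2ko mice, with 0 of 4 tested genes called and 2 at an unadjusted p of 0.05 or less in edgeR.

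The 10 genes spanned more than 2 orders of magnitude in level. In PS2APP;Trem2wt microglia the order of the mean nRPKM was Cst3, Cd9, Lyz2, Serpine2, Cst7, Timp2, Cd63, Cd52, Ank and Cadm1, from 17542 down to 61.69. Cst3 had the highest nRPKM of all genes in each of the 13 mice and took 1.7 to 2.35% of all counts, while the 10 genes together took 2.57 to 3.34%. The places of Timp2 and Cd63 depend on counts held by a pseudogene of Cd63, given further on. Neighbours in this order overlapped in range except at 2 steps, from Cst3 to Cd9 and from Cst7 to Timp2. In PS2APP;Trem2ko microglia the order was Cst3, Cd9, Lyz2, Serpine2, Timp2, Cd63, Cst7, Cd52, Cadm1 and Ank. Cst7 had moved from the fifth to the seventh place and Ank from the ninth to the last, and the other 8 genes kept their order among themselves. The ranges of neighbours in this second order overlapped at 3 steps, between Cd63 and Cst7, Cst7 and Cd52, and Cd52 and Cadm1.

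**Figure D1:**
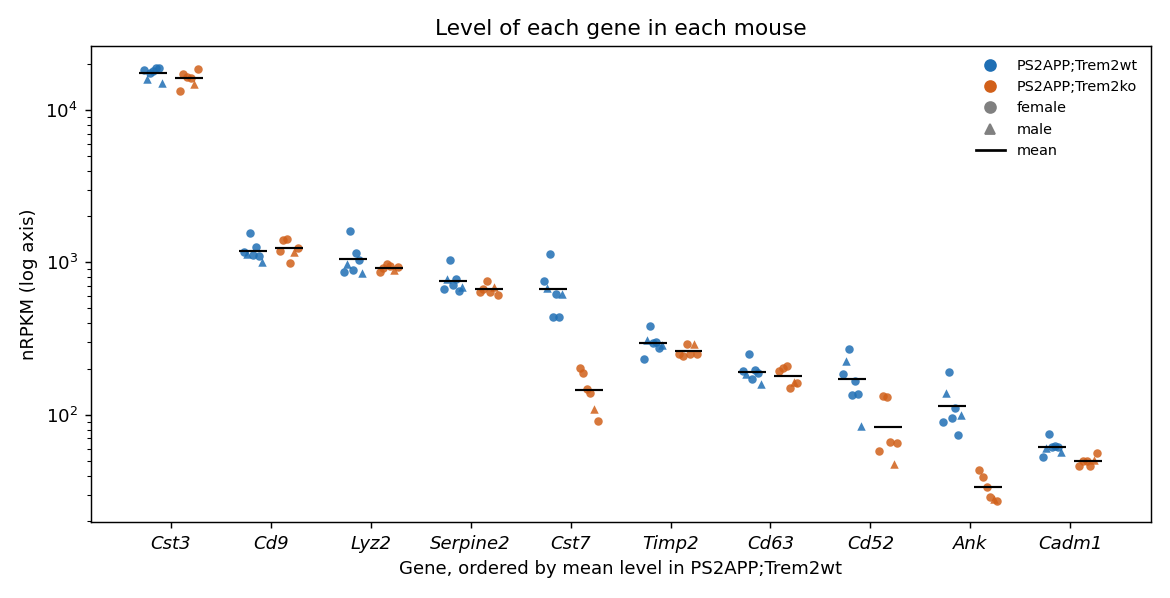
nRPKM on a log axis for each of the 10 genes in each mouse, with PS2APP;Trem2wt in blue and PS2APP;Trem2ko in orange, circles for females, triangles for males and a black line at each group's mean. For Cst7 and Ank all 6 PS2APP;Trem2ko mice lie below all 7 PS2APP;Trem2wt mice, and for the other 8 genes the groups overlap.

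Of the 10 genes, 2 (Cst7 and Ank) were lower in PS2APP;Trem2ko microglia at an edgeR adjusted p of 0.05 or less, 0 were higher, and 8 were not called. Over the 17086 genes tested, 1.53% were called lower and 0.503% higher. Both called genes were also at least 2-fold lower, which held for 0.691% of all genes tested, and both had no overlap between groups in scaled CPM, which held for 1.22%. The log2 fold change (PS2APP;Trem2ko minus PS2APP;Trem2wt) was negative for 9 of the 10 genes and positive for 1, Cd9, with a median of -0.19 and a range from -2.20 to 0.06. Over all genes tested the median was 0.0039 and 49.3% were negative. In bulk RNA of sorted cells, fewer cells that express a gene and less of its RNA per cell cannot be told apart.

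**Figure D2:**
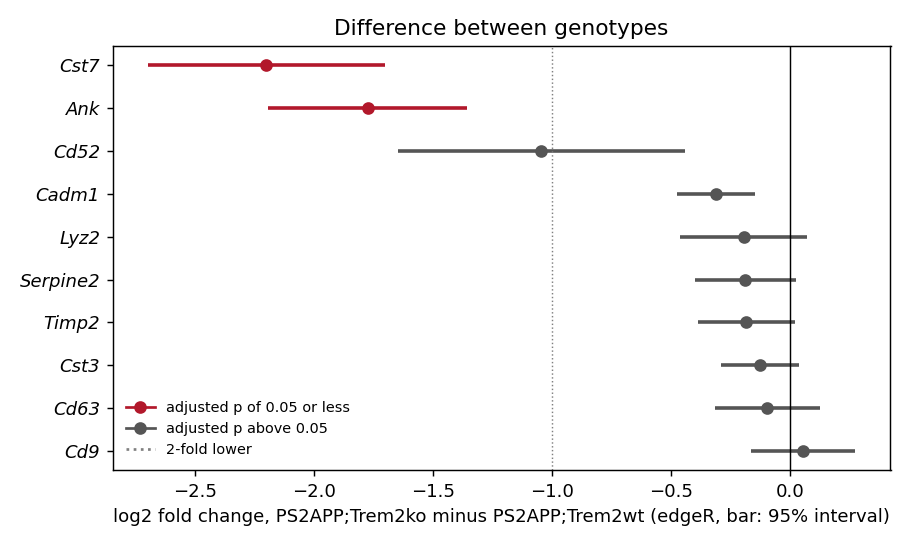
log2 fold change of each gene between genotypes from edgeR, with its 95% interval as a bar, in red at an adjusted p of 0.05 or less and in grey above it. Cst7 (-2.20) and Ank (-1.77) lie beyond the dotted line at 2-fold lower with their whole intervals, Cd52 (-1.04) lies on both sides of it, and the other 7 genes lie between -0.31 and 0.06.

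Promoter sequences are shown for the 2 called genes and, as a contrast, for Cst3, the other cystatin gene, which lies 1695 kb from Cst7 on chromosome 2 and was not called. Each run is the 250 bases upstream of the start annotated in RefSeq on GRCm38.p6, on the gene's own strand and 5′ to 3′. Capitals mark GAGGAA or its reverse complement TTCCTC, a form of ETS-type motif. For Cst3 that start lies inside the GENCODE gene span given further on, so part of its run is within that span.
Cst7, chr2:150570165-150570414, plus strand: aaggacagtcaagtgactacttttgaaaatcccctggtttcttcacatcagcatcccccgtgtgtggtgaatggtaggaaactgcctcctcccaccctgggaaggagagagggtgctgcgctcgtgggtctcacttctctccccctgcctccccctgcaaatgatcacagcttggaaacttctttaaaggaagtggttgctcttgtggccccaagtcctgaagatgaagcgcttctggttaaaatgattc
Ank, chr15:27466427-27466676, plus strand: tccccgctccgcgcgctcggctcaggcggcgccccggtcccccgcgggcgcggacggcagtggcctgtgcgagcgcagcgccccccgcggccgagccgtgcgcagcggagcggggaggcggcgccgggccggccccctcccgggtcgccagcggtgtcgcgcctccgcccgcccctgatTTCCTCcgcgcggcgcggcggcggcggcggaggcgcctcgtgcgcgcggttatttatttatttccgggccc
Cst3, chr2:148875513-148875762, minus strand: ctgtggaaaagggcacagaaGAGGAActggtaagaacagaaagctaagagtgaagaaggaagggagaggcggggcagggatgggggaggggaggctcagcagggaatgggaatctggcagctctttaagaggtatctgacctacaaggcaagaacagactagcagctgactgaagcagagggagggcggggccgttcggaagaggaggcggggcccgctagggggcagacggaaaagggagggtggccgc
The Cst7 stretch had 51.6% G and C and 4 CpG, near the medians of 52.4% and 6 over 32851 promoters of the same length. The Ank stretch was made of 81.2% G and C with 49 CpG. Cst3 lay between them at 59.6% and 8 CpG. This form was found once upstream of Ank, 71 to 66 bases before the RefSeq start, and once upstream of Cst3, 230 to 225 bases before it. The Cst7 window did not hold GAGGAA or TTCCTC. It held other GGAA sequences, such as AGGAAG, and those forms were not searched. Among the 8 genes with a promoter entry GAGGAA or TTCCTC was also found for Cd63, so 3 of 8 held this form against 23.3% of all promoters. The E-box CACGTG, the AP-1 site TGACTCA and the CRE TGACGTCA were searched on both strands and were found in 0 of the 8, against 6.02%, 4.46% and 1.55% of all promoters. Cd52 and Cadm1 were not searched.

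Among the inhibitors, Cst7 showed the largest difference. Cst7 encodes cystatin F, an inhibitor of cysteine cathepsins that acts inside endosomes and lysosomes (ENSMUSG00000068129, chromosome 2, 150570415 to 150578944, plus strand, 4 exons). Its nRPKM was 439 at the lowest, 621 at the median and 1133 at the highest in PS2APP;Trem2wt mice, with a mean of 670.1 ± 236 (SD, n = 7). In PS2APP;Trem2ko mice it was 91.8, 143 and 202, with a mean of 146 ± 42.9 (SD, n = 6). The highest PS2APP;Trem2ko mouse stayed below the lowest PS2APP;Trem2wt mouse, and no value overlapped. The log2 fold change was -2.20 (SE 0.23, 95% interval -2.70 to -1.70, edgeR adjusted p = 8.18e-05), a 4.6-fold lower level. Among all genes of a mouse, Cst7 ranked between 33 and 58 by nRPKM in PS2APP;Trem2wt and between 114 and 310 in PS2APP;Trem2ko microglia. Within the PS2APP;Trem2ko group, replicate 1 was at 202 and replicate 6 at 91.8, a wider relative spread than for any of the other inhibitors.

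Cst3 encodes cystatin C, a secreted inhibitor of the same protease class (ENSMUSG00000027447, chromosome 2, 148871722 to 148875692, minus strand). Its nRPKM was 15123, 18086 and 18950 (lowest, median, highest) in PS2APP;Trem2wt and 13386, 16341 and 18503 in PS2APP;Trem2ko mice. The ranges overlapped widely, with 2 of 6 PS2APP;Trem2ko mice below all PS2APP;Trem2wt mice. Its log2 fold change of -0.12 (SE 0.08, 95% interval -0.29 to 0.04) did not pass the test (edgeR adjusted p = 0.491). The ratio of both cystatins within a mouse does not depend on how libraries are scaled. Cst7 reached 0.02315 to 0.06498 of the Cst3 level in PS2APP;Trem2wt and 0.004962 to 0.01509 in PS2APP;Trem2ko mice, again without overlap. The mean log2 ratio differed by -2.06 (p = 0.000583 by a two-sided exact permutation test with 1716 splits of the mice, the smallest p it can give, and 0.00175 after adjustment over 3 ratios).

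Serpine2 encodes protease nexin-1, a secreted serpin that inhibits thrombin and plasminogen activators (ENSMUSG00000026249, chromosome 1, 79794197 to 79861180, minus strand). Its nRPKM was 652, 709 and 1044 (lowest, median, highest) in PS2APP;Trem2wt and 615, 658 and 756 in PS2APP;Trem2ko mice. Of the PS2APP;Trem2wt mice only replicate 3, at 1044, was above 777, and 3 of 6 PS2APP;Trem2ko mice were below all PS2APP;Trem2wt mice. Serpine2 had a log2 fold change of -0.19 (SE 0.10, 95% interval -0.40 to 0.02, edgeR adjusted p = 0.403), which was -0.10 without that mouse. Timp2 encodes a secreted inhibitor of matrix metalloproteases that also takes part in the activation of Mmp2 (ENSMUSG00000017466, chromosome 11, 118301069 to 118355740, minus strand). Its nRPKM was 232, 298 and 384 in PS2APP;Trem2wt and 244, 251 and 292 in PS2APP;Trem2ko mice. All 6 PS2APP;Trem2ko mice were within the PS2APP;Trem2wt range but below its median. Timp2 had a log2 fold change of -0.18 (SE 0.10, 95% interval -0.39 to 0.02, edgeR adjusted p = 0.398), which was -0.11 without the same mouse, at 384. The ratio of Serpine2 to Timp2 was 2.378 to 2.878 in PS2APP;Trem2wt and 2.37 to 2.762 in PS2APP;Trem2ko mice, and the mean log2 ratio differed by -0.0017 (two-sided exact permutation test, p = 0.97).

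**Figure D3:**
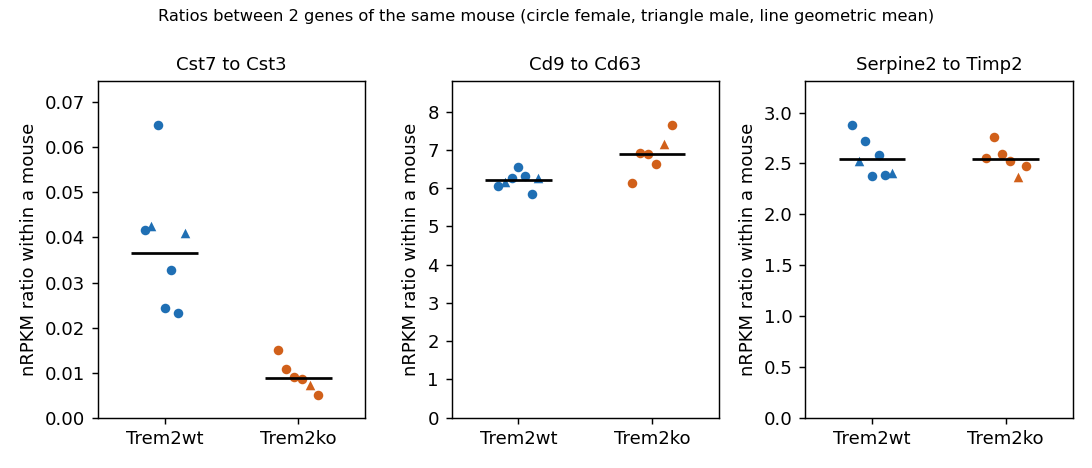
Ratio of the nRPKM of 2 genes in the same mouse, in 3 panels with axes from 0, for PS2APP;Trem2wt (blue) and PS2APP;Trem2ko (orange), with circles for females, triangles for males and a line at the geometric mean. The ratio of Cst7 to Cst3 separates the genotypes, the ratio of Cd9 to Cd63 is higher in 5 of 6 PS2APP;Trem2ko mice than in all PS2APP;Trem2wt mice, and the ratio of Serpine2 to Timp2 overlaps throughout.

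Among the surface proteins, Ank was the one called. Ank encodes a membrane protein with many transmembrane passes that supports the export of ATP and pyrophosphate from cells (ENSMUSG00000022265, chromosome 15, 27466677 to 27594909, plus strand, 12 merged exons). Its nRPKM was 74 at the lowest, 99.1 at the median and 191 at the highest in PS2APP;Trem2wt mice, with a mean of 114.2 ± 39.4 (SD, n = 7). In PS2APP;Trem2ko mice it was 27.4, 31.1 and 43.7, with a mean of 33.41 ± 6.66 (SD, n = 6). The groups did not overlap. The log2 fold change was -1.77 (SE 0.20, 95% interval -2.19 to -1.36, edgeR adjusted p = 0.000128), a 3.42-fold lower level. By level, Ank ranked between 161 and 447 among all genes in PS2APP;Trem2wt and between 800 and 1452 in PS2APP;Trem2ko microglia. The miRNA gene Mir7117 shares 65 exonic bases with Ank and had at most 2 counts.

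Cd52 encodes a short glycoprotein anchored by lipid to the surface of leukocytes (ENSMUSG00000000682, chromosome 4, 134082448 to 134095082, minus strand). Its nRPKM was 84.4, 166 and 271 (lowest, median, highest) in PS2APP;Trem2wt and 47.7, 65.6 and 132 in PS2APP;Trem2ko mice. The groups overlapped through 1 PS2APP;Trem2wt male, replicate 7, at 84.36, and 2 PS2APP;Trem2ko females, replicates 2 and 3, at 132.1 and 131.6, while the other 4 PS2APP;Trem2ko mice were at 47.72 to 66.29. For Cd52 the log2 fold change of -1.04 (SE 0.28, 95% interval -1.65 to -0.44) had an unadjusted p of 0.00216 and did not pass the test over all genes (edgeR adjusted p = 0.0771). Without that PS2APP;Trem2wt male it was -1.17 (edgeR adjusted p = 0.0365), without PS2APP;Trem2ko replicate 2 it was -1.23 (0.0455) and without replicate 3 it was -1.22 (0.0488). These are the mice that made the groups overlap, so a smaller p without them follows from the choice. Of the 13 fits that each left out 1 mouse, only these 3 called Cd52, and the largest edgeR adjusted p was 0.165. The relative spread within groups (coefficient of variation 36.1% and 45.7%) was wider for Cd52 than for any other of the 10 genes. Those 2 PS2APP;Trem2ko females also had the highest lymphocyte (25.8 and 23.4 nRPKM) and monocyte marker sums (9.21 and 20.9 nRPKM) of their group. Of those lymphocyte sums 19.9 and 20.2 nRPKM came from 1 gene, Cd79b, and without it the sums were 5.95 and 3.2 nRPKM, against 0.788 to 2.73 in the other PS2APP;Trem2ko mice. In PS2APP;Trem2wt mice the lymphocyte sums without Cd79b were 0.556 to 3.79 nRPKM and the monocyte sums 2.87 to 25.3 nRPKM. The sort was for cells positive for CD11b and negative for Ccr2. Ccr2 RNA was at 0.523 to 2.1 nRPKM in PS2APP;Trem2wt and 0.831 to 5.13 nRPKM in PS2APP;Trem2ko mice. The part of lymphocytes and monocytes in the result for Cd52 was not tested. Crybg2, which overlaps Cd52 on the opposite strand by 172 exonic bases, had at most 10 counts.

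Cadm1 encodes an adhesion molecule of the immunoglobulin superfamily (ENSMUSG00000032076, chromosome 9, 47530173 to 47857637, plus strand). Its nRPKM was 53.1, 61.6 and 74.9 (lowest, median, highest) in PS2APP;Trem2wt and 46.2, 49.7 and 56.4 in PS2APP;Trem2ko mice. PS2APP;Trem2wt replicate 1 at 53.06 and PS2APP;Trem2ko replicate 6 at 56.35 made the groups overlap, and 5 of 6 PS2APP;Trem2ko mice were below all PS2APP;Trem2wt mice. The log2 fold change was small and tightly estimated at -0.31 (SE 0.08, 95% interval -0.47 to -0.15), with an edgeR adjusted p of 0.0506 and an unadjusted p of 0.00104. Cadm1 thus lay just outside the threshold, and it passed in 10 of 24 alternative settings, among them voom+limma (adjusted p = 0.0398), with a largest adjusted p of 0.128.

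The tetraspanins Cd9 and Cd63 were not called. Cd9, found at the plasma membrane (ENSMUSG00000030342, chromosome 6, 125460266 to 125494791, minus strand), was at 1000, 1132 and 1563 nRPKM (lowest, median, highest) in PS2APP;Trem2wt and 995, 1213 and 1434 nRPKM in PS2APP;Trem2ko mice. Its log2 fold change was 0.06 (SE 0.10, 95% interval -0.16 to 0.28, edgeR adjusted p = 0.858), and 5 of 6 PS2APP;Trem2ko mice were above the PS2APP;Trem2wt median. Cd63, found mostly in late endosomes, lysosomes and the vesicles they release (ENSMUSG00000025351, chromosome 10, 128900989 to 128912822, plus strand), was at 160, 189 and 250 nRPKM in PS2APP;Trem2wt and 150, 179 and 208 nRPKM in PS2APP;Trem2ko mice. Its log2 fold change was -0.09 (SE 0.10, 95% interval -0.32 to 0.13, edgeR adjusted p = 0.73), and -0.02 without PS2APP;Trem2wt replicate 3, the mouse at 250. The intervals of both genes leave out a 2-fold difference in either direction. Although neither gene passed its own test, the ratio of Cd9 to Cd63 within a mouse was 5.839 to 6.539 in PS2APP;Trem2wt and 6.139 to 7.649 in PS2APP;Trem2ko mice, with replicate 1 the only PS2APP;Trem2ko mouse inside the PS2APP;Trem2wt range. The mean log2 ratio was 0.15 higher (two-sided exact permutation test, p = 0.00816, adjusted over 3 ratios 0.0122). Among females alone it was 0.14 higher, and the exact permutation p adjusted over 3 ratios was 0.0714, so this call was lost.

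The levels of Cd9 and Cd63 carry an uncertainty of counting. Each has a processed pseudogene, a copy made from its spliced mRNA and inserted elsewhere, and how the counting divided reads between gene and copy was not tested. Of the 50-base words of its transcripts, the length of a read, Cd63 shared 387 (9.7%) with Cd63-ps, and Cd9 shared 14 (0.703%) with Cd9-ps. Cd63-ps held 7813 to 39508 counts per mouse, 78.2 to 84.8% of the count of Cd63, and its log2 fold change was -0.12 (edgeR adjusted p = 0.632). Cd9-ps held 4653 to 25386 counts, 8.87 to 9.72% of the count of Cd9, and its log2 fold change was 0.07 (edgeR adjusted p = 0.821). With the counts of gene and pseudogene summed, an alternative chosen after seeing the data, the log2 fold change was -0.11 for Cd63 and 0.06 for Cd9, and the log2 ratio of Cd9 to Cd63 differed by 0.16 (two-sided exact permutation test, p = 0.00583). With the Cd63-ps counts added at the length of Cd63, the mean Cd63 level was 349 nRPKM in PS2APP;Trem2wt and 325 nRPKM in PS2APP;Trem2ko mice, above Timp2 in 6 of 7 and 6 of 6 mice, so the places of Cd63 and Timp2 in the order of levels depend on this counting. Lyz2 had 15.4% of its words in common with Lyz1, which held at most 134 counts, Cd9 had 8.48% in common with Gm26728 on the opposite strand, which held at most 28, and Cd52 had 8.89% in common with Crybg2. Cst7, Cadm1, Timp2 and Cst3 shared 0 such words with any other gene.

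Lyz2 encodes lysozyme, an enzyme that cuts bacterial cell walls and is abundant in macrophages and neutrophils (ENSMUSG00000069516, chromosome 10, 117277331 to 117282321, minus strand). Its nRPKM was 849, 976 and 1615 (lowest, median, highest) in PS2APP;Trem2wt and 867, 927 and 979 in PS2APP;Trem2ko mice, so that the PS2APP;Trem2ko mice lay in a narrow band inside the PS2APP;Trem2wt range. The coefficient of variation was 25.4% in PS2APP;Trem2wt and 4.17% in PS2APP;Trem2ko mice. Its log2 fold change was -0.19 (SE 0.13, 95% interval -0.46 to 0.07, edgeR adjusted p = 0.51), and -0.06 without PS2APP;Trem2wt replicate 3, the mouse at 1615. That mouse had a neutrophil marker sum of 32.9 nRPKM, the median of its group, and the mouse with the highest sum (168 nRPKM, replicate 2) had 975.7 nRPKM of Lyz2. The part of neutrophils in the level of Lyz2 was not tested.

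The same PS2APP;Trem2wt female, replicate 3 (79883820 counts), had the highest level of its group for 9 of the 10 genes, all but Cst3. Its values were 1133 for Cst7, 190.8 for Ank and 270.6 nRPKM for Cd52. Across the other PS2APP;Trem2wt mice the male replicate 7 was the lowest for 5 of the 10 genes, and in the PS2APP;Trem2ko group the female replicate 3 was the highest for 5. Without PS2APP;Trem2wt replicate 3 the log2 fold change was -2.03 for Cst7 (edgeR adjusted p = 4.2e-05) and -1.61 for Ank (3.26e-05), so both calls held.

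**Figure D4:**
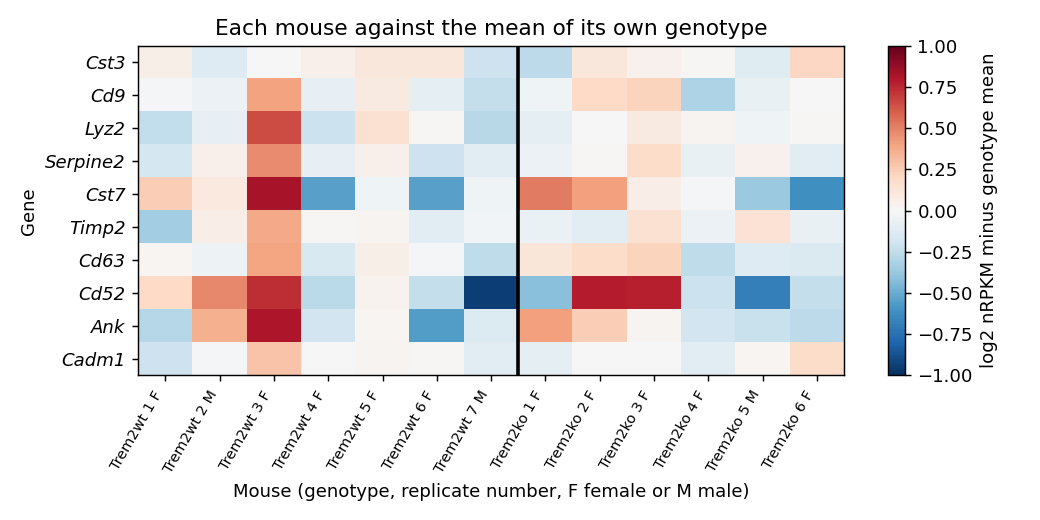
Difference of each mouse from the mean log2 nRPKM of its own genotype, with genes as rows and mice as columns, red for higher and blue for lower, and a black line between PS2APP;Trem2wt (left) and PS2APP;Trem2ko (right). The column of PS2APP;Trem2wt replicate 3 is red for 9 of the 10 genes, and the rows of Cst7, Cd52 and Ank hold the strongest colours in both genotypes.

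Within genotypes the 10 genes mostly varied together across mice. After the mean of each genotype was subtracted, 41 of the 45 pairs of genes had a positive Pearson correlation of log2 CPM over the 13 mice, with a median of 0.57. The highest was 0.92, between Cd9 and Cd63, and the lowest -0.37, between Ank and Cst3. All 4 negative pairs involved Cst3, with Ank, Cst7, Timp2 and Serpine2. These values share libraries, depth and the mouse that was highest for 9 genes, and are given as a description. The share of positive pairs among other genes is not given here, so these values have no reference to be set against. Among 11015 genes with a mean of at least 1 nRPKM, the 3 most like Cst7 were Chst2 (0.93), Ube2e1 (0.91) and Pdcd1 (0.89), and those most like Ank were Aldh2 (0.92), Fam20c (0.91) and Klhl12 (0.90). Cd52 was most like Ly6a (0.95), H2-Q7 (0.95) and Tmem205 (0.94), Serpine2 most like Fam174a (0.98), Sdc3 (0.93) and Gm2a (0.92), and Cadm1 most like Flot2 (0.86), Pink1 (0.85) and Frmd8 (0.85). Lyz2 was most like Pon2 (0.90), Mfsd12 (0.90) and Dnase2a (0.90), Timp2 most like Tmem123 (0.94), Chst10 (0.92) and Pigs (0.92), and Cst3 most like Gm6180 (0.91), Cox6c2 (0.91) and Cfl1 (0.90). For Cd9 and Cd63 the most alike gene was the gene's own pseudogene (0.98 each), followed by Atp5b (0.94) and Lgals3 (0.93) for Cd9 and by Hmox1 (0.96) and Ldha (0.94) for Cd63.

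No difference between sexes was called for the 10 genes. In a fit with genotype and sex, 0 of 10 passed (smallest edgeR adjusted p = 0.713), 0 also passed by voom+limma, and 1 had an unadjusted p of 0.05 or less in edgeR, while 0.0234% of all genes were called. That gene was Cst3, at 17442 to 18950 nRPKM in PS2APP;Trem2wt females and 15123 to 16029 in males, with all 5 females above both males (log2 difference 0.20 over both genotypes). In PS2APP;Trem2ko mice the females were at 13386 to 18503 nRPKM and the male at 14758, with 4 of 5 females above it. The female value was higher than the male value for 9 of the 10 genes in that fit, all but Timp2. A change of the genotype difference with sex was called for 0 of 10 genes and for 0.0176% of all genes (smallest edgeR adjusted p = 0.907, 0 at an unadjusted p of 0.05 or less), with a single PS2APP;Trem2ko male whose spread was taken from the other mice. Among females alone, Cst7 (log2 fold change -2.14, edgeR adjusted p = 0.00238) and Ank (-1.70, 0.00365) were again the 2 genes called.

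Relatives and partners of the 10 genes were read from the same fit, in which 1.53% of all genes tested were called lower and 0.503% higher. The proteases that cystatins inhibit did not pass the test: 0 of 10 cysteine cathepsins and legumain were called in edgeR, with a median log2 fold change of -0.06, 1 at an unadjusted p of 0.05 or less (Ctsh, -0.20) and the most abundant, Ctss, at 0.08 (edgeR adjusted p = 0.752). The 1 other cystatin tested, Cstb, had a log2 fold change of -0.14 (edgeR adjusted p = 0.547). Of the serpins and plasminogen activators, 1 of 11 was called lower and 0 higher. This was Plau, which encodes urokinase, a plasminogen activator that Serpine2 inhibits. Plau was at 3.01 ± 0.369 nRPKM (SD, n = 7) in PS2APP;Trem2wt and 1.22 ± 0.482 nRPKM (SD, n = 6) in PS2APP;Trem2ko mice, with no overlap (log2 fold change -1.29, SE 0.23, edgeR adjusted p = 0.00626). At an unadjusted p of 0.05 or less in edgeR there was also Serpinf1, a secreted serpin that does not inhibit proteases (log2 fold change -0.64, edgeR adjusted p = 0.0666). Lrp1, the uptake receptor for serpin complexes and the most abundant of that list, was at 0.02 (edgeR adjusted p = 0.962). Of the Timp inhibitors and metalloproteases 0 of 12 were called, and the most abundant was Adam10 (log2 fold change -0.04). With an unadjusted p of 0.05 or less in edgeR there were 2, in opposite directions. Mmp14 had a log2 fold change of -0.56. Mmp13 had one of 2.61 at very low levels, with means of 0.0302 nRPKM in PS2APP;Trem2wt and 0.196 nRPKM in PS2APP;Trem2ko mice.

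Of the 22 other tetraspanins tested, 1 was called lower and 0 higher. Tspan5, which binds the protease Adam10, was at 3.07 to 3.98 nRPKM in PS2APP;Trem2wt and 1.8 to 2.3 nRPKM in PS2APP;Trem2ko mice, without overlap (log2 fold change -0.78, SE 0.09, edgeR adjusted p = 0.00014). The most abundant, Cd81, was at 0.11 (edgeR adjusted p = 0.586), and the list's median was -0.06. At an unadjusted p of 0.05 or less in edgeR there were also Tspan33 (log2 fold change -0.49, edgeR adjusted p = 0.092), with no overlap between groups, and Tspan9 (0.30, edgeR adjusted p = 0.238). Of 6 tetraspanin partners 0 were called, with 1 at an unadjusted p of 0.05 or less in edgeR (Igsf8, -0.35) and the most abundant, Itgb1, at -0.17. Of 8 Cadm and nectin adhesion genes 0 were called lower and 2 higher. Cadm4 had a negative log2 fold change near the threshold (-1.06, edgeR adjusted p = 0.0565), with 5 of 6 PS2APP;Trem2ko mice below all PS2APP;Trem2wt mice. Unlike Cadm1 it was at very low levels, with means of 0.411 nRPKM in PS2APP;Trem2wt and 0.199 nRPKM in PS2APP;Trem2ko mice and at most 142 counts. Epb41l3, a cytoskeletal partner of Cadm1, was at 8.33 to 14 nRPKM in PS2APP;Trem2wt and 14.8 to 21.7 nRPKM in PS2APP;Trem2ko mice (log2 fold change 0.64, edgeR adjusted p = 0.0138). Cadm2 was called at very low levels, 0.0594 to 0.106 against 0.124 to 0.258 nRPKM (log2 fold change 0.89, edgeR adjusted p = 0.0382). Among the other pyrophosphate and phosphate genes (6 tested), lysozymes (2 tested) and Cd52 and Siglec-G partners (3 tested), 0 were called in edgeR. The 1 at an unadjusted p of 0.05 or less among these was Siglecg (log2 fold change 0.50), and the most abundant of the other lists, by the mean over all 13 mice, were Slc20a1 (0.27) and Lyzl4 (-0.27).

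Of 26 other DAM genes tested, 12 were called lower and 0 higher, with a median log2 fold change of -0.63. Over all 17086 genes tested 1.53% were called lower and 0.503% higher, with a median of 0.0039. The 6 with the smallest p were Lpl (-2.55), Baiap2l2 (-1.98), Itgax (-2.24), Spp1 (-4.78), Igf1 (-1.66) and Fabp5 (-1.76), and the most abundant, Ctsd, was at -0.20 (edgeR adjusted p = 0.351). Those 6 were picked by p in the same fit, so large fold changes among them follow from the choice. The other called genes of the list lay between -3.36 and -0.48, and the genes not called between -0.84 and 0.47. Cst7 (-2.20) and Ank (-1.77) lay in the range of the called genes, as did Cd52 (-1.04), which was not called. The 7 genes between -0.31 and 0.06 lay in the range of those not called. Both ranges were set by the call in this same fit, so a gene's place in them largely follows from the size of its own difference. These lists were written with results of these data known, and their counts are a description.

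**Figure D5:**
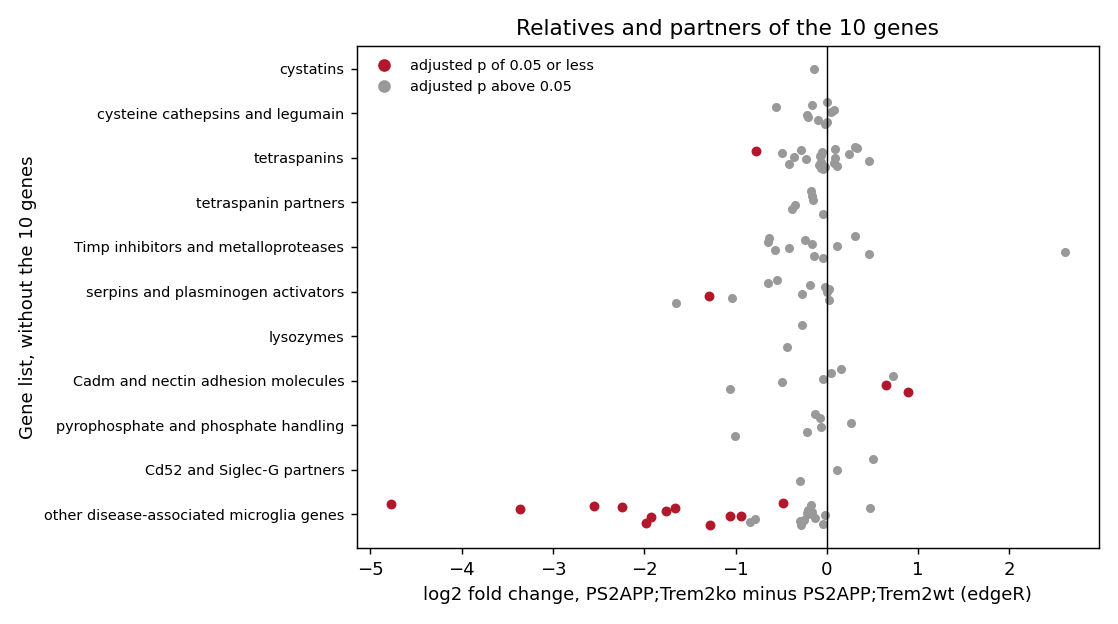
log2 fold change between genotypes of each gene tested in the lists of relatives and partners, without the 10 genes themselves, in red at an edgeR adjusted p of 0.05 or less and in grey above it. Red points are the 12 other DAM genes and Tspan5 and Plau on the left of 0, and Cadm2 and Epb41l3 on the right, while the remaining lists hold grey points only.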

How the data were processed

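RNA-Seq was analysed in sorted brain myeloid cells of 7 PS2APP;Trem2wt and 6 PS2APP;Trem2ko mice, grouped by the sample labels. The authors prepared libraries from low-input RNA, discarded adapters, low-quality and rRNA reads, and aligned single-end reads to GRCm38 with GSNAP. Per the file headers they deposited counts of uniquely aligned reads and nRPKM, an RPKM adjusted by size factors. Strand use in counting is not given in the sources used here. Names and coordinates came from GENCODE M21 on GRCm38, and 52403 of 52636 identifiers matched a name.

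Counts were tested with edgeR 4.0.16 (R 4.3.3): filterByExpr by genotype (17086 genes kept), TMM scaling, glmQLFit and glmQLFTest without covariates, and Benjamini-Hochberg adjustment over all genes. The residual degrees of freedom were 11 and the common biological coefficient of variation 0.299. SEs were computed from log2 fold changes and F statistics as |log2 fold change|/√F. Ratios used deposited nRPKM and exact permutation tests. The code was tested on simulated data. Among 36 pairs of mice of a genotype, the lowest chi-square of the counts was 19.6 times sampling noise, so no library looked deposited again. DESeq2 1.42.0, voom+limma and limma on log2(nRPKM + 0.1 or 1) (version 3.58.1), other filters, RLE scaling, counts thinned to 26120961, a sex covariate, a fit of females, and fits without each mouse were tried as alternatives. Summing pseudogene counts was added after seeing the data.

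The 10 genes and all lists were chosen with earlier results of these data known. Genes named are the 10, Trem2, in each list the genes called (at most 6, by p) and the most abundant, and the 3 genes most correlated with each of the 10. Genes at an unadjusted p of 0.05 or less and pseudogenes were named after their values were seen.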

Additional observations from a re-analysis of the deposited data

Results flagged for a closer look

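In 3 of the 20 groups tested (10 genes in 2 genotypes), the highest mouse stood apart from the rest of its group by Dixon's criterion, and it was PS2APP;Trem2wt replicate 3, a female, each time. For Cd63 this mouse was at 249.6 nRPKM against 160 to 198 in the other 6 mice, a gap of 0.572 of the whole range. For Serpine2 it was at 1044 nRPKM against 652 to 777, a gap of 0.681. For Lyz2 it was at 1615 nRPKM against 849 to 1146, a gap of 0.613. Chance marks about 1 in 20 groups in this way, and the 3 groups share a mouse.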

How the results depend on the processing

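The number of genes called was 348 (262 lower and 86 higher) with edgeR, 851 (526 lower and 325 higher) with DESeq2, and 127 (118 lower and 9 higher) when a change of at least 2-fold was also asked for. Leaving out each mouse in turn gave 244 to 357 calls, 191 to 284 lower and 42 to 107 higher. The higher calls were fewer than 86 by over 1.5 times without PS2APP;Trem2ko replicate 1 (42) and without PS2APP;Trem2wt replicates 2 (53), 3 (56), 4 (47), 5 (53) and 6 (48). With no filter on low counts there were 275 calls, 222 lower and 53 higher. Of the 10 genes 2 were called with edgeR, and 4, with Cd52 and Cadm1 added, under DESeq2 and under limma on log2(nRPKM + 0.1). Leaving out each mouse in turn called 2 to 4 of the 10, with 4 without PS2APP;Trem2wt replicate 7. Cst7 and Ank were called in all 24 alternatives, Cd52 in 5 (adjusted p from 0.0314 to 0.165), Cadm1 in 10 (0.00386 to 0.128) and the other 6 genes in 0, and no log2 fold change of the 10 genes turned its sign. The ratio of Serpine2 to Timp2 was too near 0 for a direction: leaving out each mouse moved the difference between -0.0257 and 0.0278. The differences in the other ratios kept their sign in all alternatives, and both stayed called after adjustment over the 3 ratios except Cd9 to Cd63 among females (exact permutation p adjusted over 3 ratios 0.0714). The cause of these shifts was not tested. No paired analysis was possible because the labels carry no replicate numbers that tie mice of the 2 genotypes together, although the study processed them mostly in pairs. The lowest count of the 10 genes was 2135, and with counts thinned to the smallest library 3 of the 10 were called, with Cadm1 added (adjusted p = 0.0434).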

Other observations

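The PS2APP;Trem2wt female with the highest level of 9 of the 10 genes, replicate 3, was also the highest of its group for 25 of 26 other DAM genes tested (96.2%), and for 3057 of all 17086 genes tested (17.9%). The remaining DAM gene was highest in replicate 2. Its microglia marker sum was 19188 nRPKM, within the range of the other 6 mice. In the PS2APP;Trem2ko group the highest values of the 26 genes were spread over replicates 2 (10 genes), 3 (7), 1 (6), 5 (2) and 6 (1). The cause was not tested.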
